A study of Homo sapiens with 22 samples.

Results

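The RNA levels of 10 genes of cohesin and its regulators, SMC1A, SMC3, RAD21, STAG1, STAG2, NIPBL, PDS5A, PDS5B, ESCO1 and ESCO2, were followed through 22 RNA-seq libraries of HT1080 cells, a human fibrosarcoma line. The genes were chosen by name, and all 10 were found among the 60675 genes of the table. SMC3 is the best known substrate of the lysine deacetylase KDAC8 (also called HDAC8), and the question was how the genes of its complex behaved when KDAC8 or the related enzyme KDAC6 was inactivated. Untreated wild-type (WT) cells gave 4 libraries. The line KDAC6H216A (4 libraries) carries a histidine-to-alanine change in the first catalytic domain of KDAC6 and was a pool of 3 clones, KDAC6H611A (4 libraries) carries such a change in the second domain, and KDAC8H143A (4 libraries) carries one in the only catalytic domain of KDAC8. KDAC6H611A and KDAC8H143A each came from a single colony, so that an effect of the mutation and a trait of the clone cannot be told apart, and KDAC8H143A also holds an unplanned base in an intron of the KDAC8 gene. WT cells were further treated for 2 days with 1 µM Tubastatin A, an inhibitor used against KDAC6, or with 5 µM PCI-34051, an inhibitor used against KDAC8, with 3 libraries each.

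Cohesin is a ring that holds sister chromatids together from S phase to anaphase and forms loops of chromatin throughout interphase. SMC1A and SMC3 are its ATPase arms, RAD21 is the kleisin that closes the ring and is cut by separase at anaphase, and STAG1 or STAG2 binds RAD21 as alternative partners. NIPBL, with MAU2, loads the ring on chromatin and drives loop extrusion, while PDS5A and PDS5B help either to release the ring or to keep it in place. ESCO1 and ESCO2 acetylate SMC3 on its head domain, which locks the ring on DNA, ESCO2 mainly during replication. KDAC8 removes this acetyl group after the ring has left chromatin, so that SMC3 can be used again. The libraries used here measure RNA and not the acetylation of SMC3, which the study reported from immunoblots to be raised in KDAC8H143A. In bulk RNA fewer cells in a phase of the cell cycle and less RNA per cell cannot be told apart.

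On counts SMC3 was called lower and PDS5B higher with each inhibitor, though PDS5B was not called with offsets for GC content and transcript length. The upstream sequences of SMC3 and PDS5B are shown for that reason. They are the 250 bases before the RefSeq start site on GRCh38, both on the plus strand, SMC3 at chr10:110567445-110567694 and PDS5B at chr13:32586202-32586451, with capitals for GGGCGG (the GC box) and CCAAT on either strand.
SMC3: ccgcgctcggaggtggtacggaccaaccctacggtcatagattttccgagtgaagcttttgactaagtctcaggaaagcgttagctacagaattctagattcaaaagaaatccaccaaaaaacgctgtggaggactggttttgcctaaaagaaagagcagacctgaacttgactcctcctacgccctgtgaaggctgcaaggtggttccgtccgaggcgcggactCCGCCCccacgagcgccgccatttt
PDS5B: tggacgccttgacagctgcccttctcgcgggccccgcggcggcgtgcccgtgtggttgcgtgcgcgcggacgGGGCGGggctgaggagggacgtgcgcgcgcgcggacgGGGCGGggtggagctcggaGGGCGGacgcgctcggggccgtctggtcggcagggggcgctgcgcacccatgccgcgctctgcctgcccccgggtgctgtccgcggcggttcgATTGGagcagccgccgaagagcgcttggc
The window of SMC3 had 1 GC box and no CCAAT, and that of PDS5B had 3 GC boxes and 1 CCAAT. Of 35116 RefSeq upstream windows of this length, 42.6% held a GC box and 32.01% a CCAAT. The GC content of the windows was 52.8% for SMC3 and 78.0% for PDS5B, with a median of 58.0% over all windows. TTCCCGCC (an E2F motif, in 2.72% of all windows), CCGGAAG (ETS, 8.52%) and TGACGTCA (CRE, 1.65%) were in neither of these windows.

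The genes lie on 8 chromosomes. On the genome build GRCh38 with the GENCODE 44 annotation, SMC1A (ENSG00000072501) extends over chrX:53374149-53422728 and SMC3 (ENSG00000108055) over chr10:110567684-110606048. RAD21 (ENSG00000164754) extends over chr8:116845934-116874776, STAG1 (ENSG00000118007) over chr3:136336236-136752403 and STAG2 (ENSG00000101972) over chrX:123960212-124422664. The regulators NIPBL (ENSG00000164190) at chr5:36876769-37066413, PDS5A (ENSG00000121892) at chr4:39822863-39977956, PDS5B (ENSG00000083642) at chr13:32586452-32778019, ESCO1 (ENSG00000141446) at chr18:21529284-21600884 and ESCO2 (ENSG00000171320) at chr8:27771949-27812640 complete the set. The transcripts share a feature that the choice by name did not use: they are rich in A and T. The GC content of the canonical transcript was between 35.7% (ESCO1) and 41.05% (PDS5A) in 9 of the genes, against a median of 47.8% over 11912 protein-coding genes tested, and SMC1A, at 46.96%, was the exception. All of them were longer (3660 to 10425 bases) than the median transcript of 3494 bases.

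The libraries of WT cells held 5248960 to 8998521 counts, those of the 3 mutant lines 6837484 to 17170493 and those of the inhibitors 24315844 to 29862658. A floor of 3 counts was equal to at most 0.62 CPM (counts relative to library size, scaled by edgeR's TMM over all 22 libraries), far below every value of the 10 genes. The mitochondrial rRNAs took 20.8% to 23.9% of the counts in WT libraries but at most 0.0259% in KDAC8H143A and 0.00541% with the inhibitors, and 0.195% and 0.173% in KDAC6H216A replicate 1 and KDAC6H611A replicate 4, far below the other libraries of those lines. The median log2 level of genes under 42% GC less that of genes over 55% GC, each relative to WT, was between -1.83 and -0.91 in the KDAC8H143A libraries, between 0.12 and 0.30 with the inhibitors and between -0.46 and 0.10 in the KDAC6 lines. For KDAC8H143A and the inhibitors, the group and these features of its libraries cannot be told apart. Each difference was therefore also fitted with offsets for GC content and transcript length. Of 8 mesenchymal markers 7 were read in quantity, with THY1 at no more than 2.49 CPM, and the summed level of the list was between 4941 and 5754 CPM in WT libraries, 7111 and 7896 CPM with the inhibitors, 3338 and 4440 CPM in KDAC8H143A, 3657 and 6225 CPM in KDAC6H216A and 2973 and 5126 CPM in KDAC6H611A. With each inhibitor 6 of the 7 markers tested were called higher and 1 lower. Of all genes 29.3% were higher with Tubastatin A and 25.5% with PCI-34051. In KDAC8H143A 4 of 8 markers were lower and 1 higher (26.9% and 31.6% of all genes). With the offsets the inhibitor counts were the same (4107 of 15088 and 3669 of 15185 genes were higher). In KDAC8H143A 6 of 8 markers were then lower and none higher (3329 of 15897 genes were lower). The part of these marker differences in the results was not tested. Of the 6 epithelial markers EPCAM, CDH1, ESRP1 and KRT19 were at 0 in all WT libraries. The list summed to between 3.79 and 6.51 CPM in WT libraries, 7.19 and 10.12 CPM in KDAC8H143A and 3.69 and 6.38 CPM in the other groups. CLDN4, the only one tested against WT, was called higher in KDAC8H143A (log2 difference 0.97, adjusted p 0.0044 by edgeR) and not with the offsets (0.23, 0.41). The 4 blood cell markers summed to at most 0.84 CPM in any library. HDAC8, the gene of KDAC8, was between 10.4 and 15.5 CPM in every library and was not called in any comparison with WT (adjusted p 0.46 to 0.99).

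With edgeR's quasi-likelihood test, Benjamini-Hochberg adjustment over all genes tested and a threshold of 0.01, the lines and treatments differed in how many of the 10 genes they touched. In KDAC6H216A 0 of 10 differed from WT cells, where 0.834% of 14500 genes tested did (0 with DESeq2 and 1 at an unadjusted p under 0.05). In KDAC6H611A 2 of 10 were called against a background of 12.3% of genes, and both were lower (6.24% of genes were lower and 6.08% higher). In KDAC8H143A 7 of 10 were called against a background of 58.5%, all of them lower, where 26.9% of all genes were lower and 31.6% higher. With Tubastatin A 3 of 10 were called against 57.9%, 2 lower (background 28.6%) and 1 higher (29.3%). With PCI-34051 4 of 10 were called against 51.1%, 3 lower (background 25.6%) and 1 higher (25.5%). All 5 comparisons share the WT libraries. With GC and length offsets 1 of 10 was called in KDAC6H611A (background 13.1%), 6 of 10 in KDAC8H143A (47.8%), 4 of them higher and 2 lower, 7 of 10 with Tubastatin A (57.3%) and 6 of 10 with PCI-34051 (51.5%), all lower with either inhibitor. Over all genes the offsets gave 4269 higher and 3329 lower of 15897 in KDAC8H143A. Lower were 4533 of 15088 genes with Tubastatin A and 4157 of 15185 with PCI-34051.

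**Figure D1:**
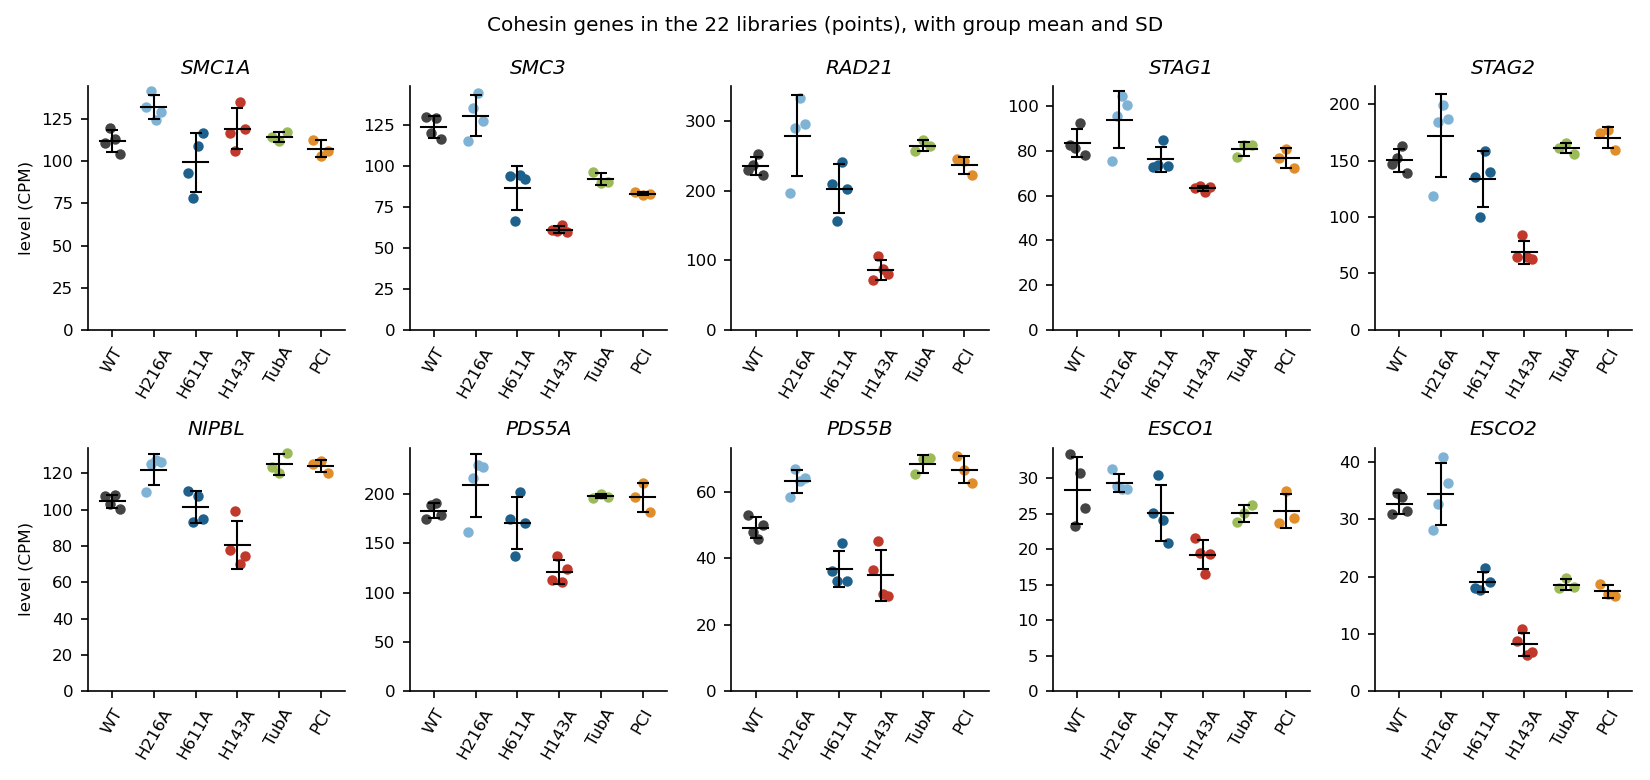
Level of each of the 10 genes in the 22 libraries, in TMM-scaled CPM from 0, with points for libraries, a line for the group mean and bars for the SD. H216A, H611A and H143A stand for KDAC6H216A, KDAC6H611A and KDAC8H143A, TubA for Tubastatin A and PCI for PCI-34051. ESCO2 had a mean of 32.8 CPM in WT cells and 8.2 CPM in KDAC8H143A, while SMC1A stayed between 99.3 and 131.9 CPM in the group means.

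**Figure D2:**
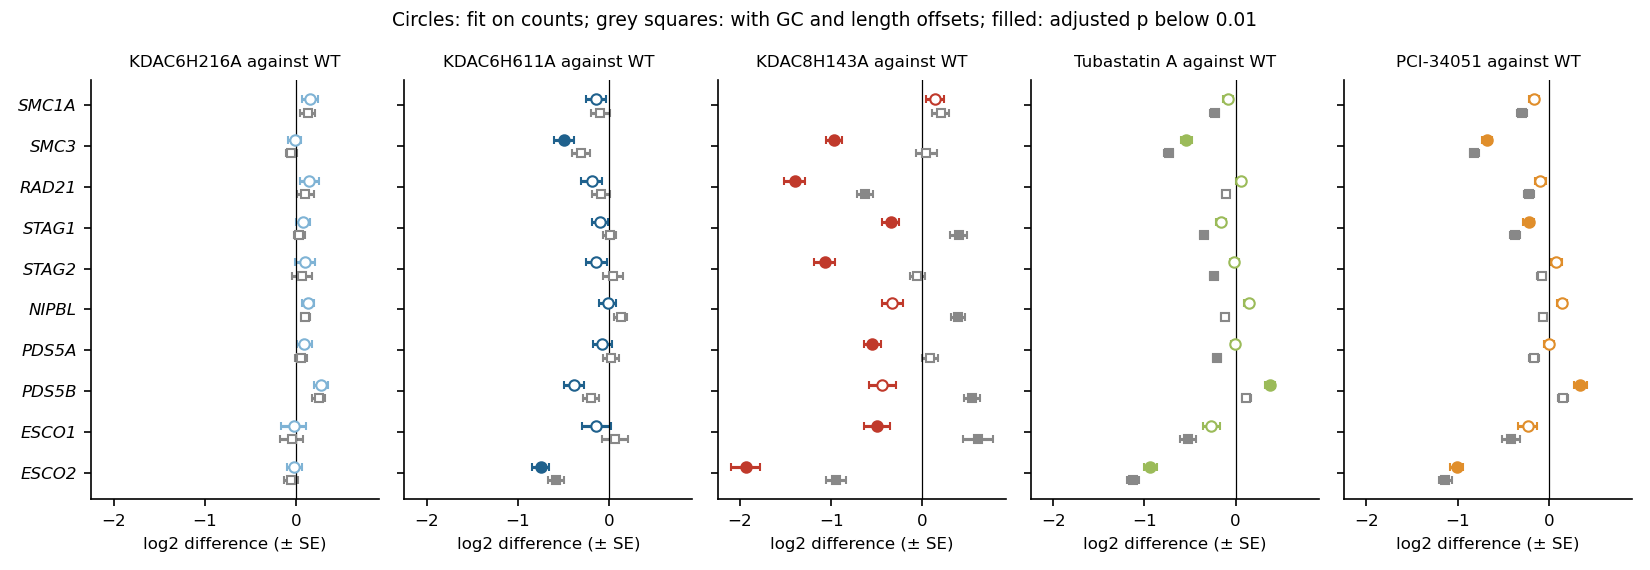
Log2 difference of each gene from WT cells with its SE, as circles for the fit on counts and grey squares for the fit with GC and length offsets, filled where the adjusted p was below 0.01. In KDAC8H143A the offsets moved every gene to the right, SMC3 from -0.97 to 0.04 and ESCO2 from -1.94 to -0.95, while with the inhibitors they moved every gene to the left.

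Among the arms of the ring, SMC3 was lower than in WT cells with both inhibitors and in the lines KDAC6H611A and KDAC8H143A, whereas SMC1A was called in none of these comparisons. SMC3 stood at 130, 120, 129 and 116 CPM in the WT libraries and at 115, 135, 144 and 127 CPM in KDAC6H216A. It was at 93.4, 66.2, 94.3 and 91.8 CPM in KDAC6H611A and at 60.6, 60.1, 63.9 and 59.4 CPM in KDAC8H143A. Tubastatin A gave 96.4, 89.6 and 90.0 CPM, and PCI-34051 gave 83.9, 82.03 and 82.5 CPM. No library of these last 4 groups overlapped with WT, and the ranges of KDAC6H611A and either inhibitor overlapped with each other, so that only KDAC8H143A stood below them all. The order of the means was KDAC6H216A, WT, Tubastatin A, KDAC6H611A, PCI-34051 and KDAC8H143A, the first pair of which overlapped.

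The log2 difference of SMC3 from WT cells was -0.49 ± 0.11 (SE, adjusted p 0.0062) in KDAC6H611A, -0.97 ± 0.09 (3.75e-06) in KDAC8H143A and, by the same edgeR test, -0.54 ± 0.06 (8.12e-08) for Tubastatin A and -0.68 ± 0.06 (1.2e-08) for PCI-34051. In KDAC8H143A this is a 1.96-fold lower level. Genes of a like GC content, 36 to 38%, had a median log2 difference of -0.90 in that line over 734 protein-coding genes, and with GC and length offsets SMC3 differed by 0.04 ± 0.12 (adjusted p 0.77). With the inhibitors, genes of 36 to 38% GC had positive medians of 0.23 (Tubastatin A) and 0.17 (PCI-34051), and with the offsets SMC3 was lower by more, at -0.73 ± 0.05 and -0.82 ± 0.05 (adjusted p 3.29e-10 and 1.6e-10 by edgeR). The call in KDAC6H611A was near its threshold. It was lost without any 1 of the WT libraries (adjusted p 0.015 to 0.026), without KDAC6H611A replicate 1 (0.013) or 4 (0.010), and with the offsets (-0.31 ± 0.10, 0.046).

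SMC1A, the other ATPase arm and the member with the least AT-rich transcript, had group means between 99.3 CPM (KDAC6H611A) and 131.9 CPM (KDAC6H216A), with 112.0 ± 6.5 CPM (SD, n = 4) in WT cells. Its log2 difference in KDAC8H143A was 0.14 ± 0.10 (adjusted p 0.23 by edgeR). It was not called with the inhibitors on counts (-0.08 and -0.16) and was called lower with GC and length offsets, at -0.23 ± 0.05 for Tubastatin A (3.2e-04) and -0.29 ± 0.05 for PCI-34051 (8.5e-05). With PCI-34051 it was also called lower without WT replicate 4, with the replicate block (-0.20 each) and among protein-coding genes only (-0.19). Scaled by the total count alone, without TMM, SMC1A was higher with both inhibitors (0.27 and 0.23, both called). That scaling moved the median of all genes by 0.35 with Tubastatin A and 0.38 with PCI-34051. Relative to the other genes SMC1A was thus again below the median with both inhibitors. In KDAC8H143A SMC1A was also called higher under that scaling (0.42, adjusted p 0.0055 by edgeR), where the median of all genes was 0.36.

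RAD21, the kleisin and per length the most abundant of the 10 genes in WT cells, was lower in KDAC8H143A alone among the calls against WT. The WT libraries had 229, 237, 252 and 222 CPM and those of KDAC8H143A 71.1, 106, 87.2 and 79.8 CPM. The groups did not overlap, and replicate 2 was the highest of the KDAC8H143A libraries. This is a log2 difference of -1.40 ± 0.12, a 2.64-fold lower level (adjusted p 2.6e-06 by edgeR). Genes of 40 to 42% GC had a median of -0.62 in that line, and with GC and length offsets RAD21 remained lower at -0.63 ± 0.09 (5.55e-05). In the other groups the means were 278.9 CPM in KDAC6H216A, 202.6 in KDAC6H611A, 264.7 with Tubastatin A and 236.6 with PCI-34051, with differences of -0.19 to 0.15 in the fits, none of them called. RAD21 was called lower with PCI-34051 under the offsets (-0.22 ± 0.05, adjusted p 0.0015).

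The STAG subunits moved unequally in KDAC8H143A. STAG2 had 147, 152, 163 and 139 CPM in WT libraries and 64.8, 84.2, 64.4 and 62.4 CPM in KDAC8H143A, with no overlap. Its log2 difference was -1.07 ± 0.11 (adjusted p 9.0e-06 by edgeR), and -0.06 ± 0.08 (0.55) with GC and length offsets. STAG1, which binds RAD21 at the same place, went from 83.6 ± 6.1 CPM in WT cells to 63.4 ± 1.2 CPM (SD, n = 4 each), a difference of -0.35 ± 0.09 (0.0040), and with the offsets the sign was opposite at 0.40 ± 0.10 (0.0033). The STAG1 call was lost without WT replicate 3 (adjusted p 0.017) or KDAC8H143A replicate 1 (0.011). With PCI-34051 STAG1 differed by -0.22 ± 0.06 (0.0037), with CPM ranges that overlapped WT, though not on the scale of that fit. The call was lost without WT replicate 3 (0.027), PCI-34051 replicate 1 (0.015) or replicate 3 (0.022). With Tubastatin A STAG1 was at -0.16 ± 0.05 and just missed the threshold (0.0102). Under the offsets STAG1 was called lower with Tubastatin A (-0.35 ± 0.05, 2.3e-06) and PCI-34051 (-0.37 ± 0.05, 1.3e-05). STAG2 was not called with either inhibitor (-0.01 ± 0.05 and 0.08 ± 0.06), and with the offsets it was called lower with Tubastatin A (-0.24 ± 0.05, adjusted p 2.3e-04) and not with PCI-34051 (-0.08).

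NIPBL, the loader, had 107, 103, 108 and 101 CPM in WT libraries and 77.9, 99.4, 69.98 and 74.6 CPM in KDAC8H143A, where replicate 2 was just below the lowest WT library. Its difference of -0.33 ± 0.11 did not pass the threshold (adjusted p 0.022 by edgeR), and without KDAC8H143A replicate 2, the highest library of that line, it was -0.51 with an adjusted p of 1.8e-04. With GC and length offsets NIPBL was higher in KDAC8H143A, at 0.39 ± 0.08 (7.3e-04). With Tubastatin A the means were 124.9 CPM and with PCI-34051 124.0 CPM, and the differences of 0.14 ± 0.05 and 0.15 ± 0.05 did not pass (adjusted p 0.020 for each). DESeq2 called both higher (0.19 and 0.18, adjusted p 0.0025 and 0.0034), as did edgeR without WT replicate 1 (adjusted p 0.0040 and 0.0055). With the offsets NIPBL had the opposite sign, at -0.12 ± 0.05 and -0.06 ± 0.05, and was not called with either inhibitor.

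The PDS5 proteins bind the ring beside WAPL and the acetylated SMC3. PDS5A fell by 0.55 ± 0.10 in KDAC8H143A (log2, adjusted p 3.3e-04 by edgeR), from 182.9 ± 7.7 to 120.9 ± 12.2 CPM (SD, n = 4 each), and was at 0.08 ± 0.09 (0.41) with the offsets. In the edgeR fits on TMM-scaled counts of all libraries, at the main filter and threshold, PDS5B was the only member called higher in a comparison with WT. It stood at 53.2, 47.8, 46.0 and 49.9 CPM in WT libraries, at 65.3, 69.97 and 70.06 CPM with Tubastatin A and at 70.9, 66.5 and 62.7 CPM with PCI-34051, with no overlap. The differences were 0.37 ± 0.06 (adjusted p 9.9e-06) and 0.35 ± 0.07 (2.3e-04), and each was called without any 1 of the libraries. Genes of 36 to 38% GC, where PDS5B lies, had medians of 0.23 and 0.17 in these comparisons, and with GC and length offsets PDS5B was at 0.12 ± 0.05 (0.047) and 0.15 ± 0.06 (0.030), short of the threshold. In KDAC6H611A it was at 36.3, 33.3, 44.8 and 33.1 CPM, all below WT (-0.39 ± 0.11, adjusted p 0.024), and in KDAC6H216A at 58.6, 66.9, 63.2 and 64.3 CPM, all above it (0.28 ± 0.08, 0.13), neither of which passed. In KDAC8H143A PDS5B changed sign with the offsets, from -0.44 ± 0.14 (0.017) to 0.55 ± 0.09 (2.1e-04).

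ESCO2, the acetyltransferase of S phase, gave the largest difference of the 10 genes in each of the 4 comparisons with WT in which any was called. The WT libraries had 31.0, 34.7, 33.8 and 31.6 CPM and those of KDAC6H216A 28.2, 32.7, 40.8 and 36.3 CPM. KDAC6H611A had 18.1, 17.6, 21.5 and 19.1 CPM, Tubastatin A 17.99, 19.7 and 18.1 CPM, and PCI-34051 18.8, 17.0 and 16.6 CPM. KDAC8H143A was lowest, with 8.76, 10.9, 6.34 and 6.86 CPM from 84 to 224 counts. WT and KDAC6H216A thus overlapped, the next 3 groups overlapped with each other but not with WT, and KDAC8H143A lay below all of them.

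The log2 difference of ESCO2 from WT was -0.75 ± 0.10 (adjusted p 1.4e-04) in KDAC6H611A, -1.94 ± 0.16 (2.3e-06) in KDAC8H143A and, by the same edgeR test, -0.93 ± 0.07 (6.3e-10) for Tubastatin A and -1.01 ± 0.07 (2.9e-09) for PCI-34051. In KDAC8H143A the level was 3.83-fold lower. All 4 calls were made without any 1 of the libraries and with GC and length offsets, where the differences were -0.58 ± 0.09, -0.95 ± 0.11, -1.12 ± 0.07 and -1.14 ± 0.07. ESCO2 and RAD21 were the members that stayed lower in KDAC8H143A under the offsets, and ESCO2 was the only one called in KDAC6H611A. Scaled by the total count alone, the ESCO2 difference in KDAC6H611A was not called.

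ESCO1, the other acetyltransferase, was less steady. It had 33.5, 23.2, 30.7 and 25.8 CPM in WT libraries and 21.5, 19.5, 16.6 and 19.4 CPM in KDAC8H143A. The difference of -0.50 ± 0.14 passed narrowly (adjusted p 0.0076 by edgeR), and was not called without WT replicate 1 (0.023), WT replicate 3 (0.023), WT replicate 4 (0.010) or KDAC8H143A replicate 3 (0.018). With GC and length offsets ESCO1 was higher in that line, at 0.61 ± 0.16 (0.0058). It was not called with Tubastatin A (-0.27 ± 0.09, adjusted p 0.018) or PCI-34051 (-0.23 ± 0.11, 0.062), and was called lower with both under the offsets (-0.52 ± 0.09 and -0.42 ± 0.10). The expected counts of STAG1, ESCO1 and ESCO2 were not whole numbers in any of the 22 libraries, as happens where RSEM splits reads between a gene and other genes.

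**Figure D3:**
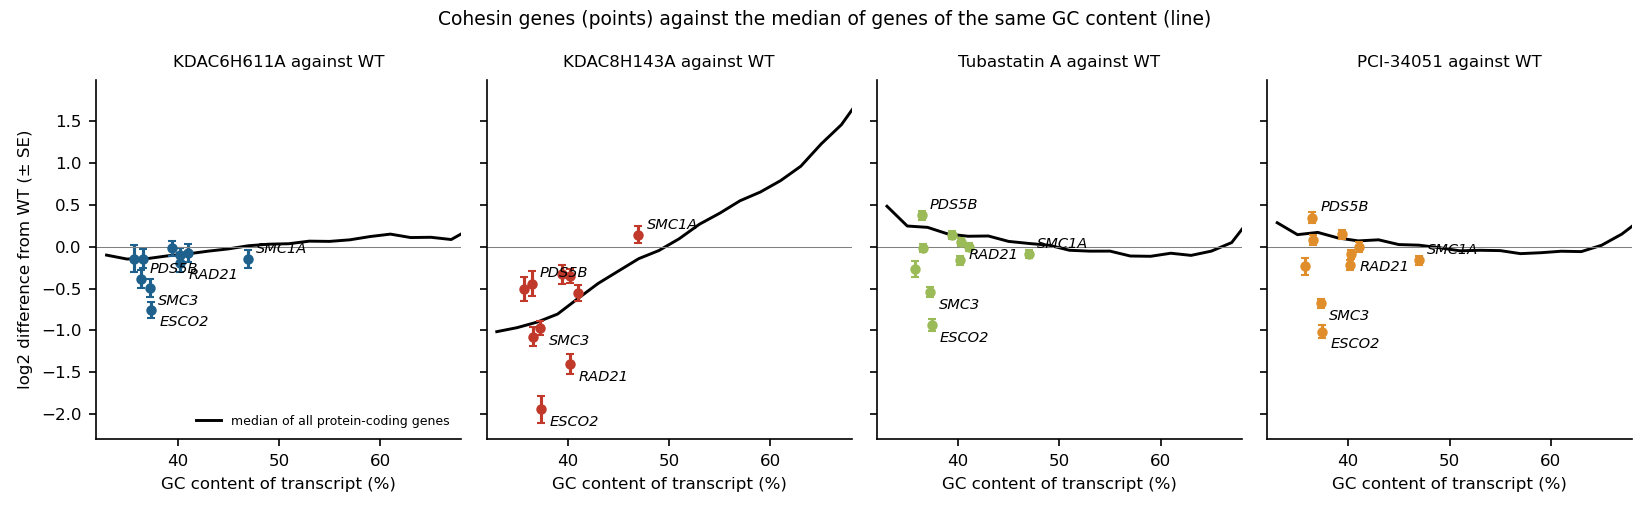
Log2 difference from WT cells, with its SE, of the 10 genes against the GC content of the transcript in percent, with the median of all protein-coding genes tested in steps of 2 percentage points as a line, for 4 comparisons. In KDAC8H143A the line rises from -1.01 at 32 to 34% GC to 1.80 at 68 to 70%, SMC3 and STAG2 lie close to it, and ESCO2 and RAD21 lie below it, while with the inhibitors SMC3 and ESCO2 lie below a line that goes from 0.48 at 32 to 34% through -0.11 at 58 to 60% to 0.36 at 68 to 70% with Tubastatin A, and from 0.29 through -0.07 to 0.34 with PCI-34051.

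Leaving out single libraries also changed the number of genes called in KDAC6H216A. Without its replicate 1, the library poor in mitochondrial rRNA, 3 of 10 genes were called higher than in WT (RAD21 0.24, STAG2 0.20 and PDS5B 0.27 on the log2 scale), but then 26.0% of all genes tested were called. With all 4 libraries PDS5B was nearest to the threshold. In KDAC8H143A the number of the 10 genes called was between 5 and 9 when 1 library was left out, and it was 9 without replicate 2, the library with the smallest GC contrast. The share of all genes called in these fits is not given here, so the counts cannot be read as a result about the 10 genes.

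Mutation and inhibitor of KDAC8 were compared directly, and then the inhibitors and the lines with each other. PCI-34051 against KDAC8H143A called 7 of 10 genes, all higher with the inhibitor (background 58.2% of 18540 genes, with 5623 higher and 5161 lower). RAD21 differed by 1.49 ± 0.14, STAG2 by 1.34 ± 0.13 and ESCO2 by 1.12 ± 0.19 (adjusted p 1.1e-05, 1.4e-05 and 4.0e-04 by edgeR). With GC and length offsets again 7 of 10 were called (background 51.4% of 18278 genes, with 4673 higher and 4724 lower). RAD21 was then the only one called higher with PCI-34051 (0.51 ± 0.11), and ESCO2 was at -0.09 ± 0.13 (adjusted p 0.57). SMC3 was lower with the inhibitor by 0.76 ± 0.13 on the log2 scale, its sign reversed from 0.48 ± 0.10. Without PCI-34051 replicate 1 the SMC3 difference on counts did not pass (adjusted p 0.011).

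Tubastatin A at 1 µM and PCI-34051 at 5 µM gave 0 of 10 calls against each other by edgeR (background 5.65% of 18409 genes, with 2 members at an unadjusted p under 0.05). DESeq2 called 1, RAD21, at 0.15 (adjusted p 0.0053). SMC3 was 0.14 ± 0.05 higher with Tubastatin A (0.057) and ESCO2 0.08 ± 0.08 (0.56), and the doses differed.

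KDAC8H143A against KDAC6H611A called 4 of 10, all lower in KDAC8H143A (background 45.2% of 16624 genes, with 3473 lower and 4046 higher). RAD21 was at -1.20 ± 0.17, ESCO2 at -1.18 ± 0.19, STAG2 at -0.92 ± 0.16 and SMC3 at -0.47 ± 0.14. Under the offsets RAD21 (-0.53 ± 0.12, adjusted p 0.0037 by edgeR) was still called lower and PDS5B (0.76 ± 0.11, 1.5e-04) was called higher. KDAC6H611A against KDAC6H216A called 3 of 10, all lower in KDAC6H611A (background 9.93% of 14961 genes, with 795 lower and 690 higher). ESCO2 was at -0.76 ± 0.11, PDS5B at -0.69 ± 0.10 and SMC3 at -0.51 ± 0.11 (adjusted p 9.9e-04, 0.0015 and 0.0099 by edgeR). ESCO2 and PDS5B were called without any 1 library and with the offsets. The SMC3 calls in these 2 comparisons rested on all libraries, since 7 of 8 single omissions ended each (adjusted p 0.012 to 0.040). Only the omission of KDAC6H611A replicate 2 or of KDAC6H216A replicate 1, respectively, left it in place.

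**Figure D4:**
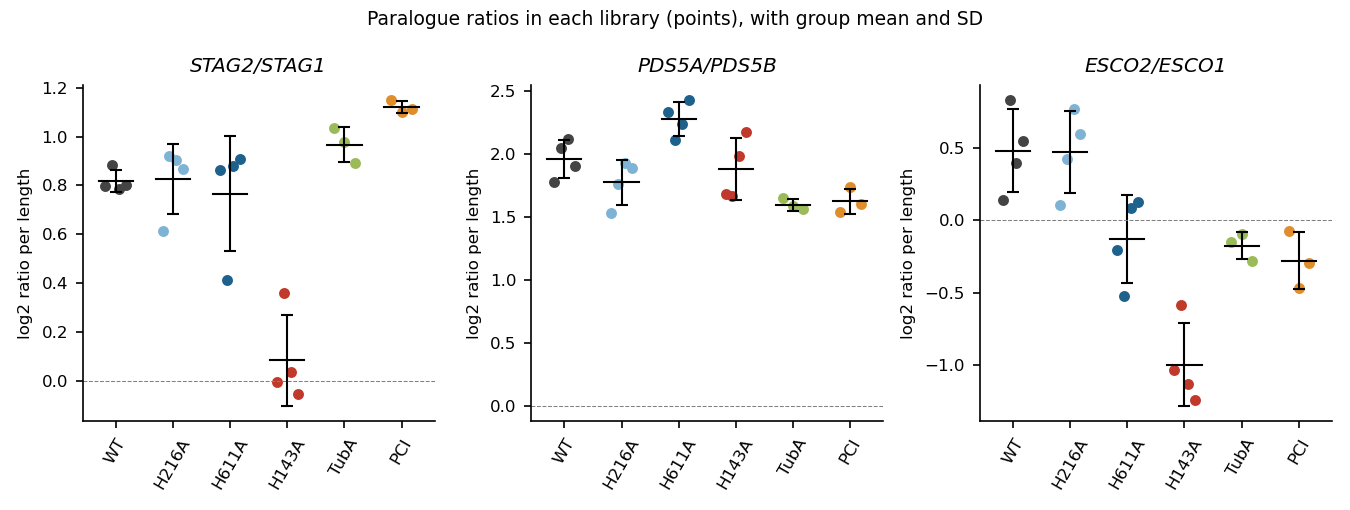
Log2 ratio of paralogues per transcript length in each library (points), with the group mean (line) and SD (bars), using the abbreviations for groups that the plot of levels uses. STAG2/STAG1 has a mean of 0.82 in WT cells and 0.08 in KDAC8H143A, and ESCO2/ESCO1 goes from 0.48 in WT to -0.998 in KDAC8H143A.

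Ratios of paralogues within a library do not depend on its depth. Per length, WT cells had 1.76 STAG2 for each STAG1 (range 1.73 to 1.84), 3.91 PDS5A for each PDS5B (3.43 to 4.34) and 1.42 ESCO2 for each ESCO1 (1.11 to 1.78). In KDAC8H143A STAG2/STAG1 was 1.07 (0.961 to 1.28), close to parity, and ESCO2/ESCO1 was 0.509 (0.424 to 0.666), with no overlap with WT in either case. The log2 differences were -0.73 and -1.48, with p = 0.0286 each by the two-sided exact permutation test, the smallest that 4 libraries against 4 allow, and adjusted p of 0.0857 over the 15 tests. KDAC6H611A also had a lower ESCO2/ESCO1 ratio, 0.929 (difference -0.61, exact p = 0.0286, adjusted 0.0857). None of the 15 differences passed an adjusted 0.05, and 3 had an unadjusted exact permutation p under it.

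With the inhibitors, 3 libraries against 4 cannot go below an exact permutation p of 0.0571, which all 6 ratios reached. STAG2/STAG1 was 1.96 with Tubastatin A and 2.18 with PCI-34051, PDS5A/PDS5B 3.03 and 3.09, and ESCO2/ESCO1 0.888 and 0.8293, none overlapping with WT. In these cells STAG2/STAG1 was thus above WT and in KDAC8H143A below it. The transcripts of each pair differ in GC content, 36.6% for STAG2 and 40.2% for STAG1, 41.05% for PDS5A and 36.4% for PDS5B, and 37.4% for ESCO2 and 35.7% for ESCO1, and the part of GC in the ratios was not tested.

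**Figure D5:**
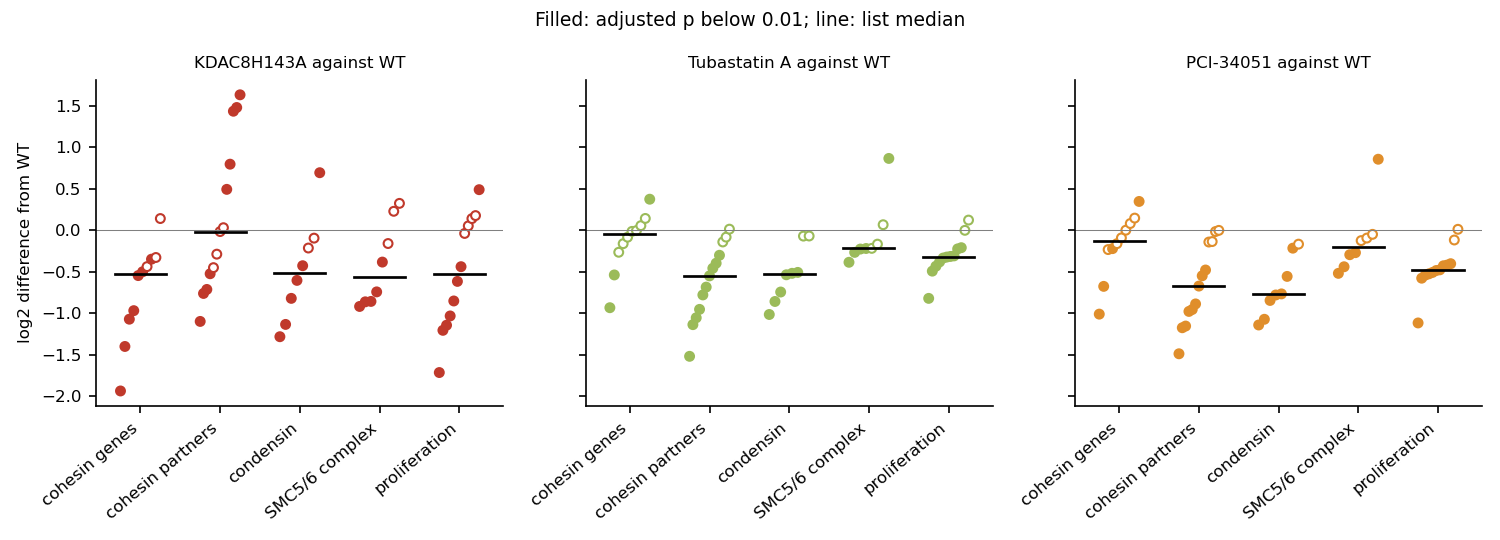
Log2 difference from WT of each gene tested in 5 lists (cohesin genes, cohesin partners, condensin, the SMC5/6 complex and proliferation genes) for KDAC8H143A and both inhibitors, filled at an adjusted p below 0.01, with the list median as a line. With PCI-34051 the medians were -0.13 for the 10 cohesin genes, -0.67 for their partners and -0.77 for condensin.

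The wider cohesin machinery was read from 13 partners, genes whose products load, release, protect or cut the ring or act with it on chromatin. With Tubastatin A 10 of 13 and with PCI-34051 9 of 13 were lower (28.6% and 25.6% of all genes tested) and none higher, with medians of -0.55 and -0.67, and the offsets gave the same counts. The medians of the 10 members were -0.05 and -0.13 and those of all genes tested 0.00 and -0.01. Among them CDCA5 (sororin, which protects acetylated cohesin) went from 42.4, 45.8, 52.8 and 49.9 CPM in WT libraries to 24.4, 24.3 and 26.2 CPM with Tubastatin A and 25.2, 21.5 and 22.6 CPM with PCI-34051. Its log2 differences were -1.06 and -1.16 (adjusted p 4.7e-11 and 6.1e-10 by edgeR). ESPL1 (separase, which cuts RAD21) was at -1.52 and -1.49. WAPL, the release factor, was at -0.14 in both and was not called, and with the offsets it was called lower in both (-0.33 and -0.29, adjusted p 6.0e-06 and 8.9e-05).

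In KDAC8H143A the partners split, with 5 of 13 higher, 4 lower and a median of -0.02 (31.6% of all genes were higher and 26.9% lower, with a median of 0.08). Under the offsets 2 were higher and 3 lower, with a median of -0.09. MAU2, the partner of NIPBL, was higher (0.80, adjusted p 2.2e-05 by edgeR) and WAPL lower (-0.76, 8.4e-05), and with the offsets neither was called, at 0.21 and -0.09. In KDAC6H611A 1 of 13 was called, ESPL1, lower at -0.53 (0.0014), where 6.24% of all genes were lower. With the offsets 3 of 13 were lower in KDAC6H611A and none higher, where 986 of 14572 genes tested were lower. In KDAC6H216A none was called by edgeR (0.834% of all genes were), with 1 at an unadjusted p under 0.05. The meiotic paralogues SMC1B and RAD21L1 did not pass the filter in any comparison with WT. STAG3 and REC8 did, and were higher in KDAC8H143A (1.23 and 2.08, adjusted p 5.2e-05 and 1.7e-05), also with the offsets (0.88 and 1.42). STAG3 was lower with both inhibitors (-1.28 and -1.18, adjusted p 1.3e-07 and 4.3e-06), also with the offsets (-1.28 and -1.21), and REC8 was called with neither.

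The other SMC complexes of the cell served as a comparison. Condensin, which compacts mitotic chromosomes, had 6 of 8 genes lower with Tubastatin A (median -0.53), 7 of 8 with PCI-34051 (-0.77) and 5 of 8 in KDAC8H143A, with 1 higher (-0.52), where 28.6%, 25.6% and 26.9% of all genes were lower. Under the offsets 7 of 8 were lower with Tubastatin A (-0.74), 8 of 8 with PCI-34051 (-0.88) and 2 of 8 in KDAC8H143A (-0.16), and none was higher. In KDAC6H611A 2 of 8 were lower and none higher (6.24% of all genes were lower). They were the ATPases SMC2 and SMC4 (-0.60 and -0.55, adjusted p 5.2e-04 and 0.0014 by edgeR). With the offsets SMC2 was still called (-0.42, 0.0033) and SMC4 was not (-0.35, 0.016). The SMC5/6 complex, which acts in repair, had medians of -0.22, -0.20 and -0.56 for Tubastatin A, PCI-34051 and KDAC8H143A, with 4, 4 and 5 of 8 genes lower and 1, 1 and 0 higher. With the offsets its medians were -0.27, -0.29 and 0.07, with 4, 5 and 0 genes lower and 1, 1 and 3 higher. For the 10 cohesin genes the medians were -0.05, -0.13 and -0.52, and -0.23, -0.26 and 0.14 with the offsets.

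Genes of proliferation were measured beside these results. Of 12 proliferation genes, 10 were lower with each inhibitor and none higher (28.6% and 25.6% of all genes were lower), 7 were lower and 1 higher in KDAC8H143A (26.9% and 31.6%), and 1 was lower in KDAC6H611A (6.24%). Their summed level was between 2170 and 2344 CPM in WT libraries, 1811 and 1875 CPM with Tubastatin A, 1500 and 1680 CPM with PCI-34051, 1633 and 2035 CPM in KDAC8H143A, 1485 and 2067 CPM in KDAC6H611A and 1838 and 2865 CPM in KDAC6H216A. With GC and length offsets 9 were lower and none higher in KDAC8H143A (3329 of 15897 genes tested were lower), and 3 were lower in KDAC6H611A (986 of 14572). With the offsets 10 were lower and none higher with each inhibitor, where 4533 of 15088 (Tubastatin A) and 4157 of 15185 genes (PCI-34051) were lower. The part of proliferation in the levels of ESCO2 and SMC3 was not tested.

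Over the 22 libraries the genes most like SMC3 in log2 CPM, among 14155 ranked, were SMC2, the condensin ATPase (Pearson r 0.976), EZR (0.972) and DEK (0.969), and those most like ESCO2 were EEA1 (0.982), DDIAS (0.974) and STARD4 (0.971). Within the set, RAD21 and STAG2 had the highest correlation (0.984), SMC3 and ESCO2 had 0.940, and SMC1A and ESCO1 the lowest (-0.16). These values describe libraries that fall into 6 groups and share the GC contrast of their group. The transcripts of 5 of the 6 genes had 34.4% to 38.96% GC, and that of EZR had 50.7%.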

How the data were processed

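RNA-seq was done on 22 libraries of HT1080 cells in 6 groups. The authors depleted rRNA, trimmed the paired reads with Trimmomatic 0.39, aligned them with Bowtie2 2.4.5 to GRCh38 and deposited the expected counts per gene of RSEM 1.3.3, unscaled. The annotation release is not given in the sources used here. Groups and replicate numbers came from the sample titles, and 0 columns were left unused. The study's methods call the replicates biological, while the labels do not say whether each was a culture of its own, so p-values measure the spread between these libraries.

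Expected counts were rounded and tested with edgeR 4.0.16 (TMM, filterByExpr, quasi-likelihood test, fits of 2 groups, Benjamini-Hochberg over all genes tested, threshold 0.01) in R 4.3.3. The SE is the log2 difference over the square root of F. Each fit has its own scaling, which moved log2 differences by at most 0.12 from those of the CPM scaled over all libraries. Alternatives were DESeq2 1.42.0, other scalings and filters, a threshold of 0.05, all groups in one fit, protein-coding genes only, GC and length offsets (mgcv 1.9.3, GENCODE 44, 56558 genes matched), the replicate block and single omissions. Ratios of paralogues (0.5 counts added, divided by length) were tested with exact permutation tests (scipy 1.17.1). Same-numbered libraries deviated together with r of -0.39 to 0.63, and in no comparison was every r over 0.1, so the numbers were not taken as pairs. No replicates agreed within sampling noise (chi-square per degree of freedom at least 2.04). Upstream sequences of RefSeq (GRCh38.p14) matched 7 of the 10 genes, not RAD21, ESCO1 or ESCO2. On simulated counts with 200 genes changed 2-fold, edgeR recovered 87.5% of them for KDAC8H143A against WT, 88.5% for PCI-34051 against WT and 88% for Tubastatin A against PCI-34051, with 2, 3 and 2 false calls. The simulated counts had the same dispersion for all genes and no GC contrast between groups. These rates therefore check the code and do not measure errors in the real libraries.

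The 10 genes and the lists (cohesin partners, meiotic cohesin, condensin, SMC5/6 complex, proliferation, markers) were chosen with earlier results of these data known. The genes named are the 10 genes, list genes where a result turned on them, and the 3 most correlated with SMC3 and with ESCO2 over the 22 libraries.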

Additional observations from a re-analysis of the deposited data

Results flagged for a closer look

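Single libraries stood apart from the other 3 of their group in 5 of 40 gene and group pairs (10 genes in the 4 groups of 4 libraries, by Dixon's test at 95%), where chance alone flags about 1 in 20. SMC3 in KDAC6H611A replicate 2 (66.2 CPM) was low beside 91.8 to 94.3 CPM. STAG1 in KDAC6H611A replicate 3 (84.8 CPM) was high beside 73.1 to 73.9 CPM, and STAG2 in KDAC8H143A replicate 2 (84.2 CPM) was high beside 62.4 to 64.8 CPM. In KDAC6H216A replicate 1, the library of that line with the least mitochondrial rRNA, NIPBL (109.6 CPM) was low and ESCO1 (31.3 CPM) was high.

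In the direct tests between lines, KDAC8H143A differed from KDAC6H611A in SMC3 (-0.47 on the log2 scale), RAD21 (-1.20), STAG2 (-0.92) and ESCO2 (-1.18). KDAC6H611A differed from KDAC6H216A in SMC3 (-0.51), PDS5B (-0.69) and ESCO2 (-0.76). The inhibitors did not differ from each other in any of the 10 genes by edgeR. Mitochondrial rRNA and the GC contrast also differ between these lines, and KDAC6H216A was a pool of clones where the other lines were single colonies.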

How the results depend on the processing

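GC content and length, scaling and single libraries moved these results most. Of 90 differences (10 genes in 9 comparisons), 15 changed sign with GC and length offsets where at least 1 of the fits called the gene. In KDAC8H143A against WT these were SMC3 (0.043 with the offsets, 0.028 with the offsets and the replicate block), STAG1 (0.40, 0.39), NIPBL (0.39, 0.39), PDS5A (0.085, 0.081), PDS5B (0.55, 0.54) and ESCO1 (0.61, 0.60). In PCI-34051 against KDAC8H143A they were SMC3 (-0.76, -0.69), STAG1 (-0.66, -0.60), NIPBL (-0.36, -0.33), PDS5A (-0.16, -0.093), PDS5B (-0.32, -0.32), ESCO1 (-0.98, -0.86) and ESCO2 (-0.089, -0.089). In KDAC8H143A against KDAC6H611A they were SMC3 (0.35, 0.34) and PDS5B (0.76, 0.76). When libraries were scaled only by their total count, the median log2 difference of all genes against WT went from near 0 to 0.17 (KDAC6H216A), 0.36 (KDAC8H143A), 0.35 (Tubastatin A) and 0.38 (PCI-34051), and to 0.30 and -0.12 for KDAC8H143A against KDAC6H611A and KDAC6H611A against KDAC6H216A. Under it SMC1A (0.27), STAG1 (0.19), STAG2 (0.34) and PDS5A (0.35) changed sign with Tubastatin A, and SMC1A (0.23), RAD21 (0.30), STAG1 (0.17) and PDS5A (0.39) with PCI-34051. All of these but PDS5A with PCI-34051 were at or below the moved median.

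The number of the 10 genes called changed by more than 1.5 times in these settings. In KDAC6H611A it was 0 by the total count and 1 with the offsets, without or with the block. With Tubastatin A it was 9 by the total count, 7 with the offsets, without or with the block, 6 at a threshold of 0.05 and 5 among protein-coding genes only. With PCI-34051 it was 8 by the total count and 2 with all 6 groups in one fit. Over all genes, the total count called 913 of 14725 in KDAC6H611A, 9756 of 15246 with Tubastatin A and 9370 of 15346 with PCI-34051. Of these, 7910 were higher with Tubastatin A and 7893 with PCI-34051. Tubastatin A against PCI-34051 had 1 call with DESeq2. KDAC8H143A against KDAC6H611A had 2 by the total count, 2 with the offsets and 1 with the offsets and the block, and KDAC6H611A against KDAC6H216A had 0 by the total count and 0 with the offsets and the block. Over all genes, the former had 6478 of 16624 by the total count and 6071 of 16406 with the offsets. The latter had 781 of 14961 by the total count. For the other settings of this paragraph the share of all genes is given above or is not given here. With 1 library left out, the number of the 10 genes called was between 0 and 3 in KDAC6H216A, 1 and 3 in KDAC6H611A, 5 and 9 in KDAC8H143A, 3 and 4 for Tubastatin A and 3 and 5 for PCI-34051. For these omissions, apart from KDAC6H216A replicate 1, the share of all genes called is not given here. With the replicate block alone the counts were 0, 2, 7, 3 and 5 in the order of the groups above, 7 for PCI-34051 against KDAC8H143A, 0 for the inhibitors, 3 for KDAC8H143A against KDAC6H611A and 2 for KDAC6H611A against KDAC6H216A, none of them moved by over 1.5 times. In the latter, leaving out KDAC6H216A replicate 1 and KDAC6H611A replicate 4 together, a setting chosen after the data were seen, gave 2 calls. The blocked ratios differed from the unblocked by less than the spread between libraries (-0.73 in KDAC8H143A for STAG2/STAG1 both ways), as did those with 1 count added, without division by length or with 1 library left out. The cause of these changes was not tested. The lowest counts behind a member were the 84 to 224 of ESCO2 in KDAC8H143A, and 3 or 4 libraries per group limit the permutation tests.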
